A study of Mus musculus with 6 samples.

Results

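The small and inducible heat shock proteins were examined through 10 genes, chosen by name from the 55401 genes of the deposited table: Hspb1, Hspb8, Cryab, Hspa1a, Hspa1b, Hspa8, Hsph1, Dnajb1, Hsp90aa1 and Bag3. RNA-seq was done on bone marrow stromal/stem cells of the mouse in culture, with 3 libraries of Nrf2 knockout and 3 of WT, both grown in DMEM with 10% fetal bovine serum. The sources used here give neither allele, strain, age nor sex of the mice, nor whether a genotype's libraries came from different animals; p-values therefore reflect library spread alone, part of which may be technical. No heat shock or other stress is named in the labels.

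Heat shock proteins are chaperones that keep other proteins folded. Small heat shock proteins hold unfolding clients without using ATP, and HSP70 proteins refold them together with J proteins and nucleotide exchange factors. Heat shock factor 1 (HSF1) switches the inducible members on through heat shock elements, inverted repeats of a short unit, while other members, such as Hspa8, are expressed in nearly all cells without stress. Nrf2, the protein of the Nfe2l2 gene, is a separate stress-responsive transcription factor that acts through antioxidant response elements. In muscle and contractile cells, Hspb1, Hspb8 and Cryab are known for their work with BAG3 on the cytoskeleton.

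Promoter windows of the 4 members with the largest fold changes are shown here because these genes were all lower in knockout libraries and carry heat shock element matches. Each runs from 250 bases before the annotated start site through the first 30 transcribed bases, 5′ to 3′ on the gene's strand, taken from RefSeq on GRCm38.p6. Capitals mark matches to GAANNTTC or TTCNNGAA, a pair of inverted heat shock units, each of which reads the same on both strands.
Hspb1, chr5:135887669-135887948, plus strand: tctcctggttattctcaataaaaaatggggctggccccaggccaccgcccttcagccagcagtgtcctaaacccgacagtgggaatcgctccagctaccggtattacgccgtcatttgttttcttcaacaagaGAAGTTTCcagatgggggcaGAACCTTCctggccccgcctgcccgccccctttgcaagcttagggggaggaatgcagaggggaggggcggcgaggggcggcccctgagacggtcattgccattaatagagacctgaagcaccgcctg
Hspb8, chr5:116422835-116423114, minus strand: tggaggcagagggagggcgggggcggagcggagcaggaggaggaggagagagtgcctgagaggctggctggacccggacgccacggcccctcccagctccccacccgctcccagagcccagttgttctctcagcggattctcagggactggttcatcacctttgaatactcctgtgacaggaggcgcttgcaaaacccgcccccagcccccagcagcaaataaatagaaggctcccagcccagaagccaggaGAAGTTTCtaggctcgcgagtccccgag
Hspa1b, chr17:34959209-34959488, minus strand: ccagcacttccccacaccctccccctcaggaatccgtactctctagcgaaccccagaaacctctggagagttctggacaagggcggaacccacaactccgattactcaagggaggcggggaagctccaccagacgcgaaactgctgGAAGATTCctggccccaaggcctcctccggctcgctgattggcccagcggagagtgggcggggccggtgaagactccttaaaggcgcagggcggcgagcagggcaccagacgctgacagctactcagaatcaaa
Hspa1a, chr17:34972127-34972406, minus strand: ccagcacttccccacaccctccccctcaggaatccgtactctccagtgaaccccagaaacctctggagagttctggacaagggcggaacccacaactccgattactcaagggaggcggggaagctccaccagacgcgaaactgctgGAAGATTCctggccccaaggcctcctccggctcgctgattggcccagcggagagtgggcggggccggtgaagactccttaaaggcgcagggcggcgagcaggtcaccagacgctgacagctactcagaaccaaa

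The Hspb1 window held matches that began 117 and 97 bases before the start site, and that of Hspb8 held 1 match that began 2 bases after it. The windows of Hspa1a and Hspa1b each held 1 match that began 104 bases before the start site. Over these 280 bases the Hspa1b and Hspa1a windows were 98.6% identical and differed at 4 positions, counted from 1 at the 5′ end with the Hspa1b base first: T44C, C47T, G249T and T276C. None of the 4 positions lies in the capitals.

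RefSeq windows of 300 bases were matched for 7 of the 10 members, and 6 of those 7 held the pair of units (Hspb1, Hspb8, Hspa1a, Hspa1b, Hsph1 and Bag3). Of all 32851 windows 15.1% held it, and of all 27025 genes with a window 17%. The unit in triplicate (GAANNTTCNNGAA or TTCNNGAANNTTC, which contains the pair) was found for Hsph1 and for 0.662% of all genes. The core of the antioxidant response element, TGACNNNGC on either strand, was found for 2 of the 7 members, Hsph1 and Dnajb1, and for 14% of all genes. A match is a run of letters in a window and was not tested as a binding site.

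**Figure D1:**
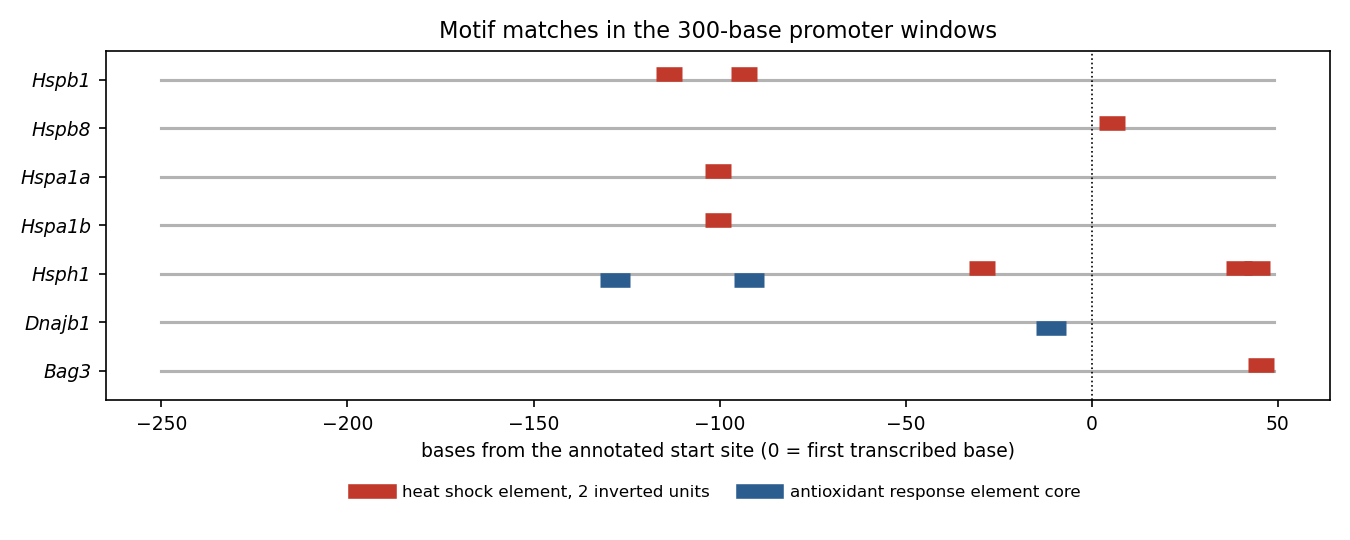
Motif matches in the 300-base RefSeq promoter windows of the 7 members with a window, one line a gene and only the first listed start site of each. The horizontal axis gives bases from the annotated start site, red blocks are matches to the pair of heat shock units and blue blocks are matches to the antioxidant response element core. The Hspb1 blocks begin 117 and 97 bases before the start site, and the Hspa1a and Hspa1b blocks stand at the same place, 104 bases before it.

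All 10 members are protein-coding genes whose mm10 coordinates, given with each below, are the same in GENCODE M21. The libraries held 20544347, 21235480 and 20069243 counts for Nrf2 knockout and 19163730, 18381114 and 21323839 for WT. Nfe2l2 itself had 118, 149 and 118 counts in knockout libraries and 3591, 3082 and 3628 in WT libraries, which matches the labels in 6 of 6 libraries. Set against the labelled cell type, markers of stromal cells were present but far below those of macrophages in the knockout. All 13 tested stromal markers of 14 listed, led by Fn1, Col1a1 and Sparc, were lower in knockout, and the list summed to 313 to 351 CPM (counts scaled to library size and composition) in knockout and to 5422, 15215 and 22198 CPM in WT replicates 1, 2 and 3. All 8 smooth muscle markers were lower too, with sums of 15.9 to 32.0 CPM in knockout and 851 to 5219 CPM in WT. No stromal or smooth muscle marker was at 0 in all 3 knockout libraries. Macrophage markers were abundant in both genotypes, with sums of 20462 to 22556 CPM in knockout and 18911 to 24934 CPM in WT, 5 of 13 higher and 0 lower. Most of each sum was Lyz2, at 11688 to 13146 CPM in knockout and 14258 to 16854.5 CPM in WT. Lyz2 was not called (edgeR adjusted p = 0.16), though lower in every knockout library. The median log2 fold change of the list was 0.54, so the overlapping sums do not show equal macrophage RNA. Neutrophil markers were higher in 7 of 8 cases, with sums of 283 to 326 CPM in knockout and 18.8 to 103 CPM in WT. Of 4 tested endothelial markers 2 were higher, and of 2 tested skeletal muscle markers 1 was lower. No lymphocyte or adipocyte marker was abundant enough to test.

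Transcripts of 7 of the 10 heat shock genes fell in Nrf2 knockout, 0 rose and 3 did not pass an adjusted p of 0.05 in edgeR's quasi-likelihood test over 13184 genes. Across all tested genes 32.9% were called, 18.7% lower and 14.1% higher. The 3 small heat shock genes and the inducible HSP70 pair Hspa1a and Hspa1b fell most, Hsph1 and Bag3 fell by less than 2-fold, and Hspa8, Dnajb1 and Hsp90aa1 were the 3 not called. All 10 members passed the filter on low counts, and their median log2 fold change (knockout over WT, as throughout) was -0.96, against -0.01 over all tested genes. In CPM, 8 of the 10 were lower in every knockout library than in any WT library, which held for 25.9% of all tested genes. The count of lower members was 3 without knockout replicate 2, 4 without knockout replicate 3 and 5 to 7 without each of the other 4 libraries. In bulk RNA such as this, fewer cells of a type and less RNA per cell cannot be told apart.

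**Figure D2:**
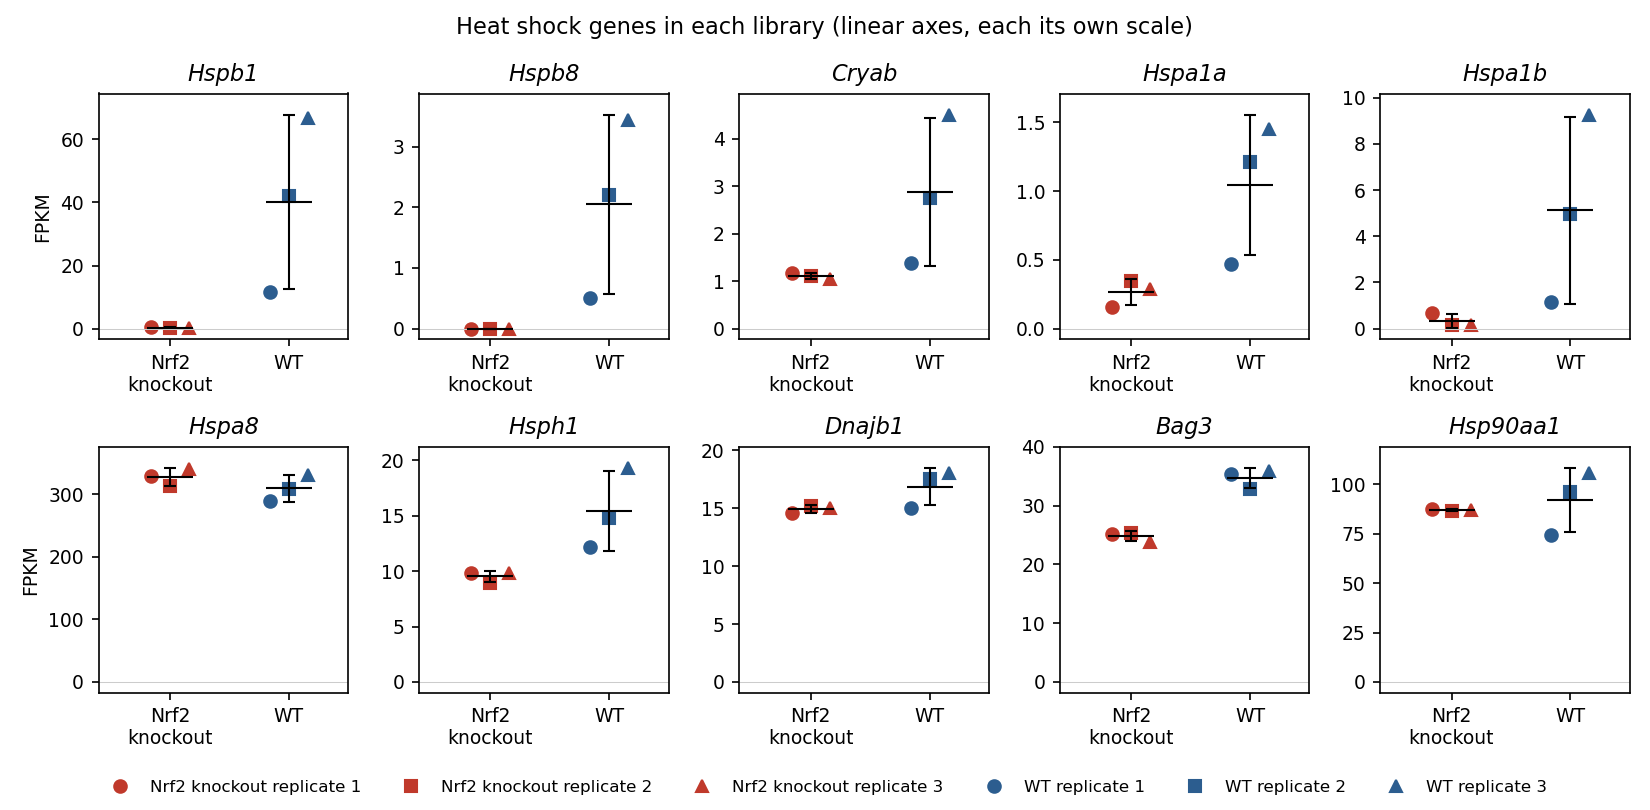
FPKM (fragment counts scaled to exonic length and library total, as deposited) of the 10 heat shock genes in each library, on linear axes with a scale for each gene. Red points are Nrf2 knockout and blue points WT, with marker shape for the replicate number, and black bars are mean and SD of 3 libraries. The knockout points of Hspb1, Hspb8, Cryab, Hspa1a, Hspa1b, Hsph1 and Bag3 lie below all WT points, those of Hsp90aa1 lie within the WT range, and those of Hspa8 and Dnajb1 overlap the WT points.

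Among the small heat shock genes, Hspb1 (ENSMUSG00000004951, chr5:135887919-135889563, plus strand) encodes HSP25, the mouse form of HSP27, which binds unfolded proteins and actin filaments. Its deposited FPKM was 0.52, 0.27 and 0.29 in knockout libraries, against 11.79, 41.90 and 66.86 in WT libraries. Every knockout library was far below every WT library, and the WT libraries themselves differed 5.04-fold in CPM, lowest in replicate 1 and highest in replicate 3. The counts behind these values were 11, 6 and 6 in knockout and 233, 794 and 1470 in WT. Hspb1 fell 103-fold (log2 fold change -6.69, SE 0.76; edgeR adjusted p = 0.0017), with knockout at 0.379 ± 0.144 CPM and WT at 39.7 ± 25.9 CPM (SD, n = 3 each). It stayed called without any 1 library, and the call ended under limma-voom (adjusted p = 0.071). As a pseudogene copy, Hsp25-ps1 shared 48.8% of the Hspb1 transcript's 50-base words, and its row held 0 counts in knockout and 2, 1 and 11 in WT.

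Hspb8 (ENSMUSG00000041548, chr5:116408491-116422864, minus strand) encodes HSP22, the small heat shock protein that pairs with BAG3 in selective autophagy. It had 0 counts in all 3 knockout libraries, against 19, 79 and 143 counts in WT, or 0.51, 2.20 and 3.44 FPKM. Set against 3 counts over the knockout libraries together, the level in WT makes Hspb8 at least 81.4-fold lower in knockout (edgeR adjusted p = 0.0096). The spread among WT libraries was 6.01-fold in CPM, in the same order as that of Hspb1. No other gene of the reference transcripts shared a 50-base word with Hspb8.

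Cryab (ENSMUSG00000032060, chr9:50751325-50756636, plus strand) encodes alpha-B-crystallin, a small heat shock protein of lens, heart and muscle that binds desmin and actin filaments. Its FPKM was 1.18, 1.11 and 1.04 in knockout libraries, against 1.38, 2.76 and 4.50 in WT libraries. The genotypes did not overlap, but WT replicate 1 stood close to the knockout libraries, at 39 counts against 36, 35 and 31. Cryab fell by 1.29 on the log2 scale (SE 0.39; edgeR adjusted p = 0.042). The call was lost without any 1 library other than WT replicate 1, with adjusted p from 0.10 to 0.13. Without WT replicate 1 the adjusted p was 0.00064. The call was also lost under limma-voom (0.092) and with limma on log2(FPKM + 1) (0.079) or log2(FPKM + 0.1) (0.059). Hspb2, the small heat shock gene on the other strand that overlaps Cryab, had 0, 0 and 4 counts in knockout and 0, 1 and 6 in WT. Reads of this pair cannot be told apart if the counting did not use strand.

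The inducible HSP70 genes Hspa1a and Hspa1b encode nearly identical proteins that are scarce in unstressed cells and rise steeply after heat shock. Hspa1a (ENSMUSG00000091971, chr17:34969190-34972156) and Hspa1b (ENSMUSG00000090877, chr17:34956436-34959238) are both on the minus strand, 9951 bases apart. Their transcripts share 58.8% of the Hspa1a words and 62.3% of the Hspa1b words of 50 bases, so how reads were split between them is uncertain. Hspa1b had 0.68, 0.17 and 0.14 FPKM in knockout libraries, against 1.15, 4.97 and 9.25 FPKM in WT libraries. Hspa1a had 0.16, 0.35 and 0.29 FPKM in knockout libraries, against 0.47, 1.21 and 1.45 FPKM in WT libraries. For neither gene did the genotypes overlap, and WT replicate 1 was again the WT library nearest to the knockout. Knockout replicate 1 was the highest knockout library for Hspb1 and Hspa1b but the lowest for Hspa1a.

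Hspa1b fell by 3.86 on the log2 scale (SE 0.86; edgeR adjusted p = 0.015) and Hspa1a fell by 1.90 (SE 0.46; adjusted p = 0.020). Counted as 1 gene, the pair had 49, 32 and 25 counts in knockout and 89, 322 and 645 in WT. That sum fell 9.58-fold (log2 fold change -3.26, SE 0.64; edgeR adjusted p = 0.0094), a comparison that the split of reads between the pair cannot alter. The share of the pair's counts on Hspa1b was 79.6%, 31.2% and 32.0% in knockout replicates 1, 2 and 3, and 69.7%, 79.5% and 85.7% in WT replicates 1, 2 and 3. The log2 fold change of Hspa1b was -4.94 without knockout replicate 1 and -3.17 without WT replicate 3. Its call was lost without knockout replicate 2 or 3 (adjusted p = 0.070 and 0.065) and under limma-voom (0.11). The Hspa1a call was lost without knockout replicate 1, 2 or 3 or WT replicate 2 (0.050 to 0.076) and under limma-voom (0.053).

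Hspa8 (ENSMUSG00000015656, chr9:40800984-40810087, plus strand) encodes HSC70, the constitutive HSP70 of the cytosol, which folds new proteins and uncoats clathrin vesicles. Its FPKM was 329.56, 313.21 and 341.15 in knockout libraries, against 288.85, 309.35 and 331.38 in WT libraries. The genotypes overlapped in FPKM, and in CPM every knockout library was slightly above every WT library, at 1435 ± 47.1 CPM in knockout and 1310.0 ± 18.0 CPM in WT (SD, n = 3 each). The log2 fold change of 0.13 was not called (edgeR adjusted p = 0.31), with an approximate 95% interval from -0.05 to 0.31, and it turned to -0.47 when libraries were scaled to the macrophage markers (adjusted p = 0.073). Of the Hspa8 transcript words 39.4% occur in other genes. The row that shares most with it, Gm15459, held 623, 740 and 670 counts in knockout and 560, 720 and 796 in WT.

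Hsph1 (ENSMUSG00000029657, chr5:149614287-149636376, minus strand) encodes HSP105, a large HSP70 relative that serves HSP70 as a nucleotide exchange factor. Its FPKM was 9.86, 8.94 and 9.82 in knockout libraries, against 12.20, 14.77 and 19.30 in WT libraries. All knockout libraries lay below all WT libraries, which spread 1.41-fold in CPM. Hsph1 fell by 0.63 on the log2 scale (SE 0.13; edgeR adjusted p = 0.011), a change of 1.55-fold, and its adjusted p was 0.052 without knockout replicate 2.

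Of the co-chaperones, Bag3 (ENSMUSG00000030847, chr7:128523616-128546981, plus strand) encodes an HSP70 exchange factor that also hands clients to autophagy. Its FPKM was 25.19, 25.42 and 23.84 in knockout libraries, against 35.40, 32.77 and 35.91 in WT libraries. The groups stood apart with little spread in either, and WT replicate 1 was not the lowest WT library here. Bag3 fell by 0.44 on the log2 scale (SE 0.08; edgeR adjusted p = 0.0079), a change of 1.35-fold that was called without each library in turn (adjusted p from 0.0027 to 0.045).

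Dnajb1 (ENSMUSG00000005483, chr8:83608193-83612653, plus strand) encodes HSP40, the heat-inducible J protein that delivers clients to HSP70 and stimulates its ATPase. Its FPKM was 14.57, 15.18 and 15.04 in knockout libraries, against 15.02, 17.52 and 18.00 in WT libraries. It was not called, at -0.12 on the log2 scale (SE 0.07; edgeR adjusted p = 0.21; approximate 95% interval from -0.26 to 0.01), although all knockout libraries lay below all WT libraries in CPM. Scaled to the macrophage markers it was called lower (-0.73, adjusted p = 0.044).

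Hsp90aa1 (ENSMUSG00000021270, chr12:110690605-110702728, minus strand) encodes the inducible cytosolic HSP90 alpha, which matures kinases and steroid receptors. Its FPKM was 87.53, 86.20 and 87.11 in knockout libraries, against 74.43, 95.83 and 105.89 in WT libraries. The knockout libraries stood within the WT range, with a log2 fold change of -0.03 (SE 0.10; approximate 95% interval from -0.23 to 0.18) and an edgeR adjusted p of 0.87. Of its transcript words 47.5% occur in other genes, and Gm12346, which shares most, held 60, 81 and 59 counts in knockout and 52, 92 and 109 in WT.

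On the per-length FPKM scale the members covered a wide range of levels, and the order of their means differed between genotypes mainly through Hspb1. In knockout the order of mean FPKM was Hspa8 (328), Hsp90aa1 (86.9), Bag3 (24.8), Dnajb1 (14.9), Hsph1 (9.54), Cryab (1.11), Hspb1 (0.360), Hspa1b (0.330), Hspa1a (0.267) and Hspb8 (0). In WT it was Hspa8 (310), Hsp90aa1 (92.0), Hspb1 (40.2), Bag3 (34.7), Dnajb1 (16.8), Hsph1 (15.4), Hspa1b (5.12), Cryab (2.88), Hspb8 (2.05) and Hspa1a (1.04). In knockout the levels of Hspb1, Hspa1b and Hspa1a did not differ beyond their SDs of 0.139, 0.303 and 0.0971. In WT the means of 5 pairs of neighbours lay closer than the sum of their SDs over libraries, so the SDs do not resolve their order. Hspb1 and Bag3 (SD 27.6 and 1.69) were such a pair, as were Dnajb1 and Hsph1 (SD 1.60 and 3.59). The others were the neighbours among Hspa1b, Cryab, Hspb8 and Hspa1a (SD 4.05, 1.56, 1.47 and 0.511). Within each WT library, however, Cryab stood above Hspb8 and Hspb8 above Hspa1a. Their FPKM was 1.38, 0.51 and 0.47 in WT replicate 1, 2.76, 2.20 and 1.21 in replicate 2, and 4.50, 3.44 and 1.45 in replicate 3. The order within the other pairs changed between WT libraries. By the same measure Hspb1 was not resolved from Dnajb1 or Hsph1 either. In WT replicate 1 Hspb1, at 11.79 FPKM, stood below Bag3, Dnajb1 and Hsph1 (35.40, 15.02 and 12.20).

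The summed FPKM of the 10 genes was 469, 451 and 479 in knockout libraries and 441, 523 and 596 in WT libraries, so the groups overlapped. Hspa8 made up 70.2%, 69.5% and 71.3% of that sum in knockout, and 65.5%, 59.1% and 55.6% in WT. Hspb1 made up 0.111%, 0.0599% and 0.0606% in knockout, and 2.67%, 8.01% and 11.2% in WT. The log2 ratio of Hspb1 to Hspa8 FPKM was -9.31, -10.18 and -10.20 in knockout libraries and -4.61, -2.88 and -2.31 in WT libraries. The ratio was lower by 6.63 on average in knockout (an exact two-sided permutation test over the 3 and 3 libraries gave p = 0.1, the smallest this design allows).

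The members that fell most also varied most among WT libraries, in the order of the stromal markers. Of the 10 members 7 were lowest in WT replicate 1 and highest in WT replicate 3, as was the stromal list, an order found in 33.2% of all tested genes and in 73.3% of all genes called lower. These 7 were Hspb1, Hspb8, Cryab, Hspa1a, Hspa1b, Hsph1 and Hsp90aa1, the last of which was not called. In WT replicate 1 the stromal list stood at 0.244 of its WT replicate 3 level, against 0.198 for Hspb1, 0.166 for Hspb8, 0.140 for Hspa1b, 0.344 for Cryab and 0.367 for Hspa1a, all in CPM. Hspa8, Dnajb1 and Bag3 stood at 0.980, 0.938 and 1.11 of their replicate 3 level in WT replicate 1. The part of stromal content in these results was not tested.

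**Figure D3:**
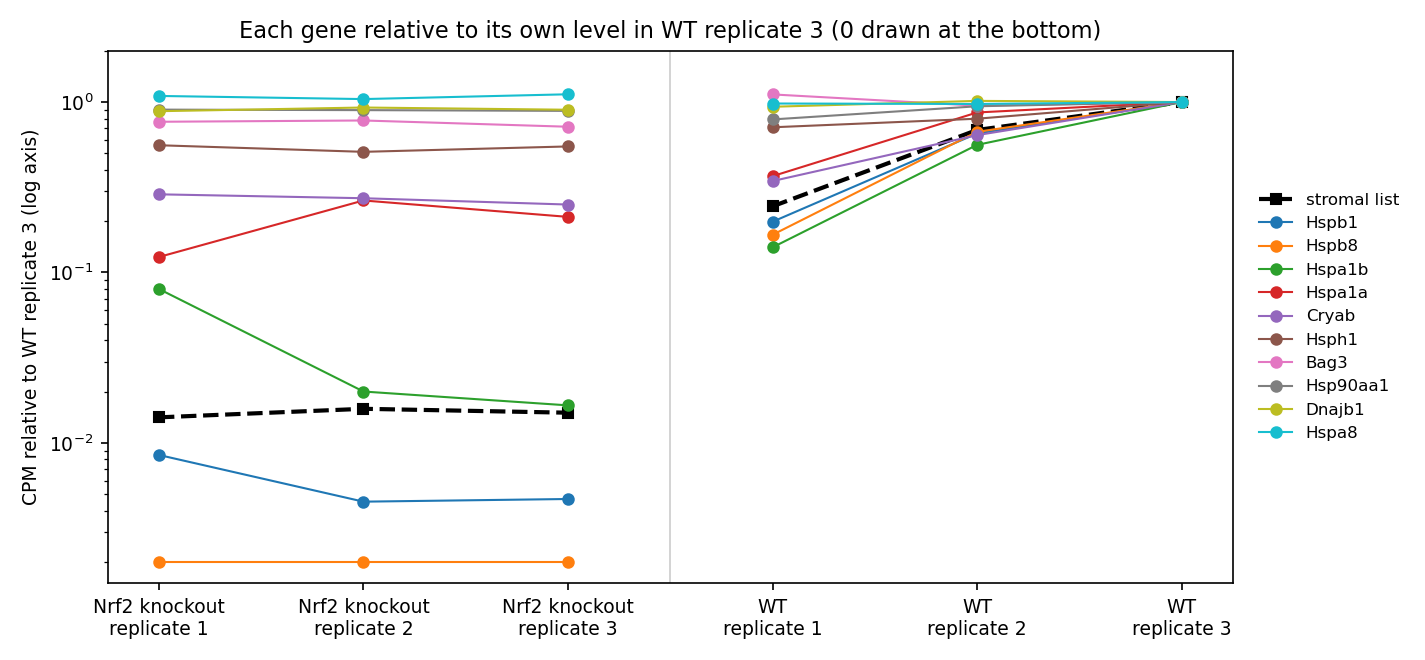
CPM of each heat shock gene and of the summed stromal list, relative to its own level in WT replicate 3, on a log axis, with Nrf2 knockout libraries left and WT libraries right. Lines only join the values of a gene within a genotype, and Hspb8, at 0 counts in knockout, is drawn near the bottom of the axis. In WT, Hspb1, Hspb8 and Hspa1b run close to the dashed stromal line. In knockout the stromal list stands at 0.0141 to 0.0158, Hspb1 at 0.00451 to 0.00848 and Cryab at 0.250 to 0.287. Most knockout counts of the list are Fn1.

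Set against stromal RNA, the small heat shock genes were unlike each other. Hspb1 had 1.74, 0.826 and 0.903 counts per 1000 stromal-list counts in knockout libraries, against 2.35, 2.77 and 2.90 in WT libraries. Its ratio to this list was thus nearly constant among WT libraries and lower in each knockout library. Fn1 alone gave 5170, 4762 and 4961 of the list's 6311, 7262 and 6645 counts in the knockout libraries. In the WT libraries it gave 50615, 103973 and 190306 of 98992, 287156 and 507172. Fn1 had a log2 fold change of -4.50, against -6.69 for Hspb1 and a median of -6.40 for the list. Fn1 thus made up more of the list in knockout than in WT. A ratio without Fn1 was not computed, so how far the lower ratio in knockout depends on Fn1 was not tested. Hspb8 had 0 counts against 20218 stromal-list counts over the knockout libraries, which allows up to 0.148 per 1000. In WT it had 0.192, 0.275 and 0.282 per 1000. As 14893 of those 20218 counts were Fn1, this bound does not by itself place Hspb8 below its WT proportion to stromal RNA. Cryab went the other way, with 5.70, 4.82 and 4.67 per 1000 in knockout and 0.394, 0.261 and 0.280 in WT. Its knockout level was thus well above the proportion to stromal RNA seen in WT. The same was true of Hspa1a (1.58, 3.03 and 2.56 per 1000 in knockout, 0.273, 0.230 and 0.181 in WT). It was also true of Hsph1, Bag3, Dnajb1, Hsp90aa1 and Hspa8, as of any gene that fell less than the list. The rise is therefore not particular to Cryab. Hspa1b had 6.18, 1.38 and 1.20 per 1000 in knockout and 0.626, 0.892 and 1.09 in WT.

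The genes with the CPM profile nearest to each small heat shock gene over the 6 libraries were found by Euclidean distance of centred log2 CPM among 11679 protein-coding genes. Nearest to Hspb1 were Adamts4, a matrix protease (distance 0.60), Lama1, a laminin chain (0.61), and Rbms3, an RNA-binding protein (0.68). Nearest to Hspb8 were Usp13, a deubiquitinase (0.16), Echdc2 (0.21) and Bmper, a BMP-binding secreted protein (0.22), each of which also had 0 counts in all 3 knockout libraries. Nearest to Cryab were Tsc22d2 (0.14), Cdr2 (0.16) and Ext1, a heparan sulfate polymerase (0.17), all of them well detected in knockout. Ext1 had 693, 643 and 585 counts in knockout and 694, 1368 and 2274 in WT. Distances for genes at 0 depend on the prior count of 2.

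Beyond the members, 64 genes of the wider chaperone system were read from the same fit, of which 60 were tested. Of these 14 fell, 1 rose and 45 were not called, with a median log2 fold change of -0.14. Of all tested genes, 18.7% were called lower and 14.1% higher. The count of lower genes was 28 without WT replicate 1 and 10 to 12 without each of the other 5 libraries.

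None of the 4 tested heat shock factor genes passed the test. Hsf1, the main inducer of the response, had 641, 620 and 503 counts in knockout and 533, 633 and 859 in WT (log2 fold change -0.21, SE 0.13; edgeR adjusted p = 0.26). Hsf4, the heat shock factor of the lens, had a log2 fold change of 0.40 (adjusted p = 0.27) and Hsbp1, an HSF1-binding protein, one of 0.17 (adjusted p = 0.22). The count was also 0 at an unadjusted p under 0.05, and Hsf1, Hsf4 and Hsbp1 were called in 0 of 17 alternatives, DESeq2 and limma-voom among them.

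Other small heat shock genes were at low levels and 0 of 3 tested were called. Hspb6, which binds contractile proteins, had 4.99 ± 0.517 CPM in knockout and 4.65 ± 1.04 CPM in WT (SD, n = 3 each; edgeR adjusted p = 0.75). The adjusted p was 0.27 for Hspb7 and 0.50 for Hspb9, and 0 of the 3 had an unadjusted p under 0.05.

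Other HSP70 family genes fell in 3 of 9 cases. Hspa12a, a distant HSP70 relative, had 1, 0 and 2 counts in knockout and 34, 100 and 223 in WT (log2 fold change -6.67, SE 0.94; edgeR adjusted p = 0.0029). Hspa2 and Hspa12b fell by 0.59 and 1.93 on the log2 scale (adjusted p = 0.036 and 0.046), calls lost without each of 4 single libraries.

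J protein genes fell in 3 of 9 cases as well. Dnajb4 had 17.9 ± 0.434 CPM in knockout and 34.5 ± 1.45 CPM in WT (SD, n = 3 each; edgeR adjusted p = 0.00078), and it differed little among WT libraries. Dnajb2 fell by 0.93 on the log2 scale (adjusted p = 0.0027), and Dnaja4 had 4, 6 and 6 counts in knockout against 35, 129 and 225 in WT (adjusted p = 0.0036), a call lost in 1 of 16 alternatives (0.062).

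Among HSP90 and its co-chaperones 1 of 9 rose and 1 fell. Ahsa1, which stimulates the ATPase of HSP90, rose 1.60-fold, with 5953, 6344 and 6063 counts in knockout and 4006, 3536 and 3679 in WT (edgeR adjusted p = 0.0065, or 0.49 when libraries were scaled to the macrophage markers). Hsp90ab1, the constitutive HSP90 beta, fell by 0.41 on the log2 scale, at 1129 ± 10.8 CPM in knockout and 1497 ± 148 CPM in WT (adjusted p = 0.028), a call lost without each of 4 single libraries. Ptges3, the co-chaperone p23, was not called (adjusted p = 0.078).

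Of the exchange factor and BAG genes 1 of 8 fell. Bag2, which inhibits the ubiquitin ligase CHIP, had 102, 106 and 116 counts in knockout and 272, 753 and 1293 in WT (log2 fold change -2.80, SE 0.46; edgeR adjusted p = 0.0049). Of the others with the smallest p, Hspbp1 had an adjusted p of 0.27 and Bag4 one of 0.38. None of the 10 chaperonin genes passed, the smallest adjusted p being 0.13 for Cct3, 0.16 for Cct6a and 0.19 for Cct8, and 0 had an unadjusted p under 0.05. Each of these 3 was called in 2 of 17 alternatives.

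Partners of BAG3 in chaperone-assisted autophagy fell in 6 of 8 cases, with a median log2 fold change of -2.14. Sqstm1, the autophagy receptor p62, had 5668, 6064 and 5534 counts in knockout and 11210, 10592 and 12404 in WT, with no overlap and little spread (log2 fold change -1.01, SE 0.09; edgeR adjusted p = 0.00086). Flnc, filamin C, a muscle actin crosslinker cleared by BAG3, had 3, 24 and 7 counts in knockout and 404, 1588 and 3279 in WT (adjusted p = 0.0023). Synpo, an actin-binding protein, had 9, 12 and 19 counts in knockout and 192, 598 and 1139 in WT (adjusted p = 0.0019). Synpo2, a relative of Synpo, had 0 counts in all 3 knockout libraries and 11, 59 and 192 in WT, at least 88.5-fold lower in knockout against 3 counts over the group (adjusted p = 0.022), a call lost without each of 4 single libraries and in 6 of 16 alternatives in all. The calls of Flnc and Synpo were each lost in 1 of 17 alternatives (adjusted p = 0.087 and 0.056). Flna, the filamin of most cell types, was not called, with 46500, 42489 and 48064 counts in knockout and 41173, 43261 and 58941 in WT (adjusted p = 0.67). The genes of this list with the largest fold changes again varied among WT libraries in the order of the stromal markers, and the part of stromal content in them was not tested.

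**Figure D4:**
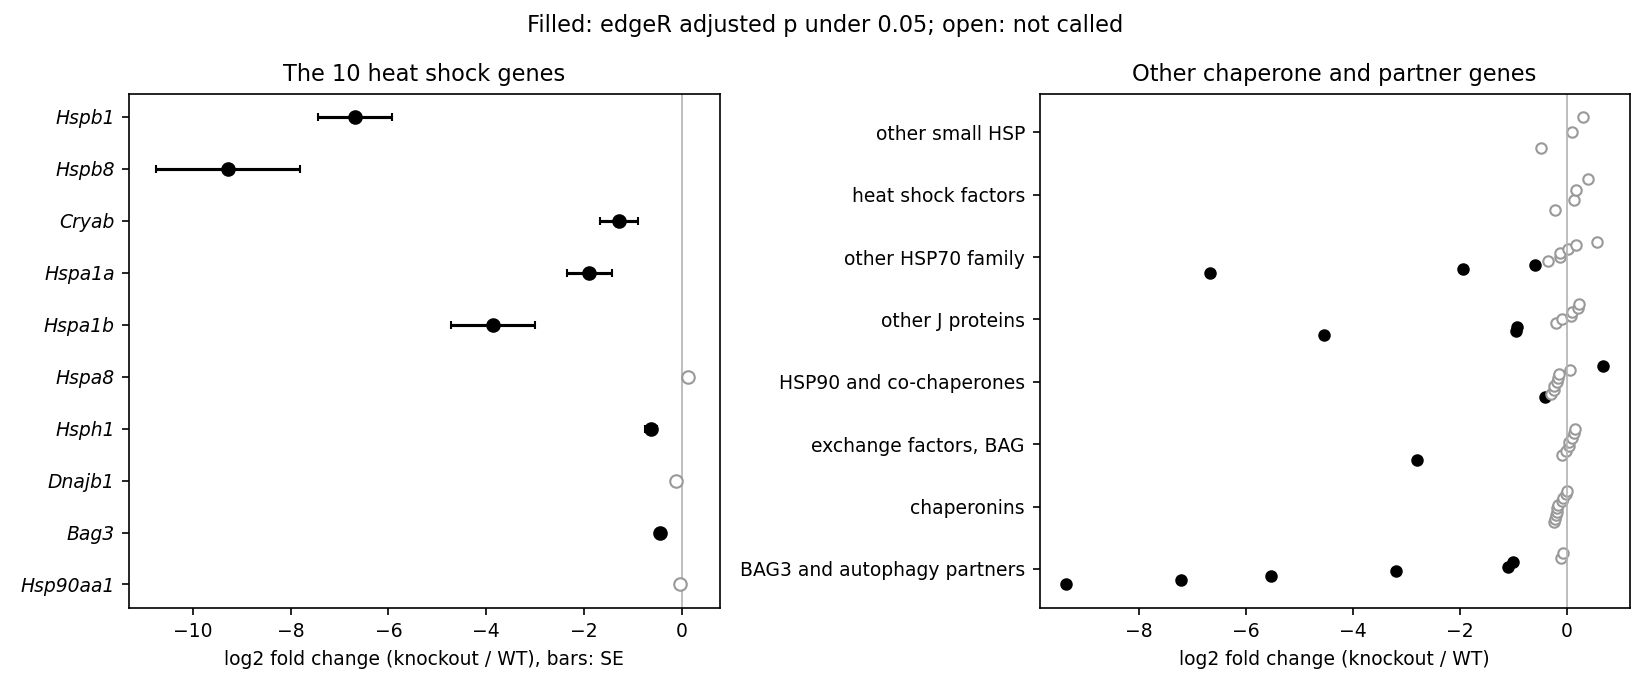
Log2 fold change, Nrf2 knockout over WT, of the 10 heat shock genes (left, with SE bars) and of the 60 tested genes of the wider chaperone system by list (right). Filled points passed an edgeR adjusted p of 0.05 and open points did not, and the fitted values of Hspb8 and Synpo2, at 0 counts in knockout, depend on the prior count. Of the heat shock genes 7 are filled, all left of 0, and Ahsa1 is the single filled point right of 0.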

How the data were processed

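Total RNA was made into mRNA-seq libraries, per the labels' protocols. Raw read counts per gene and FPKM values are as deposited by the authors. Tools listed by the submitters' processing notes are DESeq2, HTSeq 0.6.1 and HISAT2 2.0.1, with build mm10, in no stated role; strand use and the handling of reads shared by gene copies are not given in the sources used here. Each deposited FPKM equals the count over exonic length and column total within 0.005. Column totals ran from 18381114 to 21323839, so 3 counts correspond to 0.141 to 0.163 CPM, which covers counting error only. Between replicates, chi-square over its degrees of freedom was 3.24 to 8.26 in knockout and 33.19 to 161.57 in WT. Replicates thus differed more in WT than in knockout. Both ranges lie above the 1 of pure sampling, so each library was counted as 1 replicate. Columns were tied to samples by genotype and the last number of their names; the knockout names also carry a middle 1 of unstated meaning.

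Counts were tested in R 4.3.3 with edgeR 4.0.16 (filterByExpr with minimum count 10, TMM, quasi-likelihood F test, genotype as the only term, Benjamini-Hochberg adjustment over all 13184 genes kept). CPM values use TMM-scaled library sizes, and standard errors are the absolute log2 fold change divided by root F. Approximate 95% intervals are the estimate plus or minus 1.96 SE. They are narrower than the F test implies, as its degrees of freedom are few. For Lyz2 such an interval runs from -0.59 to -0.01, though the unadjusted p of edgeR's F test was 0.08. Of rows with one symbol, that of highest mean count was used. Shared transcript words were counted on GENCODE M21 transcripts on either strand. Scripts were tested on simulated counts.

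The members and lists were chosen with earlier results of these data known. Named besides the members are up to 3 genes with the smallest p in each chaperone list, and the 3 nearest profiles of each small heat shock gene. Flna, Synpo2, the shares of Fn1 and Lyz2 in their lists and the comparison with stromal counts were chosen after values were seen. Alternatives were other scalings, filters and thresholds, DESeq2 1.42.0, limma 3.58.1 (voom, and log2(FPKM + 1) or log2(FPKM + 0.1)), the replicate block, Hspa1a and Hspa1b summed, and leaving out each library.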

Additional observations from a re-analysis of the deposited data

How the results depend on the processing

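The number of members called lower, 7 of 10, was 6 to 8 under the other scalings, DESeq2, no filter, limma on log2(FPKM + 1) or log2(FPKM + 0.1) and the summed Hspa1 pair. It was 3 with limma-voom, 4 with a minimum count of 50, which removes low members from the test, and 3 at an adjusted p under 0.01. Leaving out 1 library gave 3 to 7. The count over all genes was 4333, or 2123 at an adjusted p under 0.01 and 2459 to 6467 without 1 library. Scaling to the macrophage markers moved the median of all genes to -0.61; it left 35 of the wider chaperone genes lower and 0 higher against 14 and 1, called Dnajb1 (-0.73, adjusted p = 0.044) and reversed Hspa8 to -0.47, which is above that median. The split of all calls was 248 higher and 4460 lower there, against 1865 and 2468. Without 1 library the wider count was 10 to 28. On log2(FPKM + 1), which understates low genes, Hspb1 was -4.62, Hspa1b -1.96 and Hspa1a -0.66. Hsp90aa1 ran from -0.12 to 0.04 without 1 library and changed sign when WT replicate 2 (0.00) or WT replicate 3 (0.04) was left out. The direction of the other 8 members held in every alternative that could be fitted, and the cause of each change was not tested.

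Same-numbered libraries deviated together with correlations of 0.203, 0.136 and 0.078, against -0.166 to 0.085 for differently numbered ones. Each knockout library had its highest correlation with the WT library of the same number. These values do not settle whether the numbers mark pairs. The labels do not say so, and the main fit did not take them as pairs. With the replicate block 7 members, 12 wider chaperone genes and 4174 genes in all were called lower or, for the last, in either direction. For the Hspb1 to Hspa8 ratio the block gave the same difference of -6.63, with an exact sign-flip p = 0.25, the smallest that 3 pairs allow, and leaving out 1 library gave -7.30 to -6.15. Nfe2l2 stayed between -5.35 and -4.16 under 18 alternatives. Members under 100 counts in a library are the least precise. The SE of their log2 fold change was 1.47 for Hspb8, 0.86 for Hspa1b, 0.76 for Hspb1, 0.46 for Hspa1a and 0.39 for Cryab.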
